A study of Mus musculus with 9 samples.

Results

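Matrix metalloproteases (MMPs) and their tissue inhibitors (TIMPs) were followed in mouse dorsal root ganglia (DRG), the clusters of sensory neuron cell bodies beside the spinal cord, after injury of the sciatic nerve. The members were 10 genes chosen by name: the inhibitors Timp1, Timp2, Timp3 and Timp4, the secreted proteases Mmp2, Mmp3 and Mmp9, and the membrane-type proteases Mmp14, Mmp16 and Mmp24. All of their probes were taken, which gave 16 of the 41174 probes on the array, and all 16 passed the filter on dim probes. RNA came from L3/L4 DRG of adult mice, and 4 arrays of uninjured DRG were compared with 5 arrays of DRG taken 3 days after transection of the sciatic nerve. The study's results text names an earlier time for these arrays, and its design text names L4 alone. All mice in both groups were labelled cre.neg and jun.wt, that is, without Cre and wild-type for Jun; strain, sex and exact age were not given in the sources used here. For these arrays the sources do not say whether uninjured DRG came from the other side of injured mice, or how many mice went into 1 array. In its crush experiments the study took uninjured DRG of the other side as controls for qRT-PCR, immunoblots and staining. The p-values below therefore measure the spread between these arrays.

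MMPs are zinc-dependent proteases that cleave extracellular matrix, growth factors and cell-surface proteins. They are made as inactive precursors. The membrane-type members sit on the cell surface and can activate secreted ones, and Mmp14 is best known as the activator of pro-Mmp2. TIMPs bind the active site of MMPs and block it. In injured peripheral nerve, MMPs are known for opening the blood-nerve barrier, for processing myelin proteins and for the entry of immune cells, and Timp1 is a known product of injured nerve tissue.

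Each array carried 2 labelled samples: DRG RNA in the Cy5 channel and a universal mouse reference RNA in the Cy3 channel. Values below are log2 ratios of DRG over reference, so that a value of 1 more means a doubled DRG signal for that probe. Levels of different probes were not set against each other. Median Cy5 signal per array was 156 to 238, and 71.0% to 78.9% of spots were well above background. The 9 tested of 10 sensory neuron markers were well above background in the DRG channel of every array. All 6 injury-induced genes checked were called higher, among them the transcription factor Atf3 by 5.14 and Sprr1a by 4.99 on the log2 scale. Arrays are numbered within each group for reference only. Injured array 2 had 20 spots with uneven background, which were left out. Skeletal muscle markers were raised on 2 injured arrays, by a mean of 3.50 (log2) on injured 4 and 2.01 on injured 2, against -0.07 to 0.07 on the uninjured arrays.

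Timp1 rose after injury at all 3 of its probes, by 2.19-fold to 5.20-fold. Mmp16 rose 5.50-fold at a probe designed on the cDNA AK048543, whose place in an exon of Mmp16 was not checked, and 1.19-fold at its RefSeq probe, which was faint, and Mmp3 was 1.31-fold higher. No probe of the 10 genes was called lower. Of the 16 probes, 6 were called higher (limma, Benjamini-Hochberg adjusted p under 0.05 over all 31186 probes tested). Among all probes tested 10.5% were called higher and 13.0% lower. The 6 probes belonged to 3 of the 10 genes, with 3 probes of Timp1, 1 of Mmp3 and 2 of Mmp16. The faint Mmp16 probe was not well above background on any uninjured array and passed the filter through its injured arrays alone. Without it 5 of 15 probes were called higher, in the same 3 genes, and the groups did not overlap for 7. The median log2 fold change of the 16 probes was 0.40, beside 0.00 over all probes tested. The groups of arrays did not overlap for 8 of the 16, against 22.6% of all probes. These include Mmp24 A_51_P450376, whose injured arrays lay lower. They also include Mmp9 A_51_P401797, where the nearest arrays of the groups both read -2.63 after rounding. The members were chosen with earlier results of these data known, so these figures describe the chosen genes only and are no test of them as a set.

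**Figure D1:**
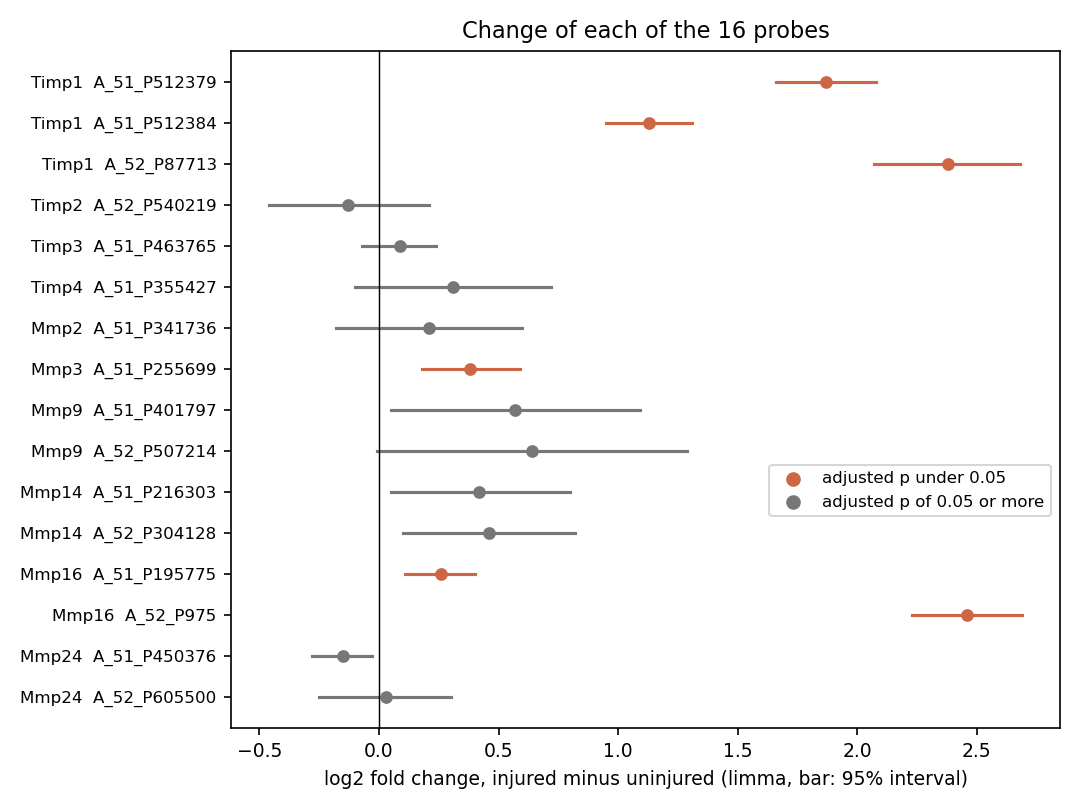
The log2 fold change (injured minus uninjured, horizontal axis) of each of the 16 probes is drawn with its 95% interval from limma, and orange marks an adjusted p under 0.05. The 3 Timp1 probes lie between 1.13 and 2.38 and 1 Mmp16 probe at 2.46, while all other probes lie between -0.15 and 0.64.

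Sequence around the annotated start was printed for the called genes with an entry in RefSeq's promoter set (GRCm38.p6, 250 bases before to 50 after the annotated start), and is shown because AP-1 factors, of which c-Jun is one, are textbook regulators of Timp1 and Mmp3. Entries were held for 7 of the 10 genes: Timp1, Timp2, Timp3, Timp4, Mmp3, Mmp14 and Mmp24. The AP-1 consensus TGANTCA and the variant TGAGTAA were searched on both strands. The consensus occurred in 1 of the 7, Mmp3, and in 7.81% of all 32851 promoters; the variant occurred in 1 of the 7, Timp1, and in 2.68%. The first sequence holds the 100 bases before the start of Mmp3 (chr9:7445722-7445821, plus strand) and the second a 29-base window after the start of Timp1 (chrX:20870181-20870209, plus strand), with the matched letters in capitals.
Mmp3: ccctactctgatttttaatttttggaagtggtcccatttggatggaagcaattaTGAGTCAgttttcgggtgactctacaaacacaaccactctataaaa
Timp1: cggtgggtggaTGAGTAAtgcgtccagga
The match began 46 bases before the annotated start of Mmp3 and at base 27 after that of Timp1. These are matches of letters only, and no binding was measured. Since both genes are textbook targets of AP-1 factors, the shares are given as a description and not as a test.

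Timp1, the injury-inducible inhibitor among the TIMPs, rose at all 3 of its probes. At probe A_52_P87713 (NM_011593; mm7 chrX:19307699-19307758, plus strand) the log2 ratio was -4.41, -4.38, -3.92 and -4.06 on uninjured arrays 1 to 4. It was -2.07, -1.78, -1.95, -1.85 and -1.44 on injured arrays 1 to 5. Every injured array lay more than 1.8 above every uninjured one, and injured 5 was the highest. The uninjured mean was -4.19 ± 0.240 (SD, n = 4) and the injured mean -1.81 ± 0.237 (SD, n = 5). Their difference, the log2 fold change, was 2.38 with a standard error (SE) of 0.138 and an adjusted p of 1.18e-06 in limma. Mean spot brightness in the DRG channel, before any normalization, was 1460 to 2330 on uninjured and 7480 to 9790 on injured arrays.

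Both other Timp1 probes moved the same way, by less in the main fit. Probe A_51_P512379 (mm7 chrX:19305989-19306238) read -3.76, -3.59, -3.39 and -3.57 on the uninjured arrays and -1.89, -1.67, -1.74, -1.76 and -1.49 on the injured arrays. That is a log2 fold change of 1.87 (SE 0.0937, adjusted p = 4.52e-07 in limma), or 3.65-fold. Its size depended on the treatment of background, at 2.28 with an offset of 0 and 2.49 with Agilent's own ratio. A_52_P87713 read 2.46 under both of these settings. Probe A_51_P512384 (mm7 chrX:19305929-19305988) read -2.42, -2.48, -2.38 and -2.37 against -1.42, -1.24, -1.38, -1.35 and -1.03. Its log2 fold change was 1.13 (SE 0.0818, adjusted p = 6.33e-06 in limma), or 2.19-fold. The groups did not overlap at any of the 3 probes, and each had the smallest p that the splits of these arrays allow, 0.00794 in a two-sided exact permutation test. Sizes differed within the gene: the change at A_52_P87713 exceeded that at A_51_P512384 by 1.25 on the log2 scale, and the first of these lies nearer the gene's 3′ end.

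The remaining inhibitors did not pass the test. Timp1, Timp3 and Timp4 overlap the synapsin genes Syn1, Syn3 and Syn2 in RefSeq (GRCm38.p6), and Timp2 overlaps Cep295nl. A probe was taken as its gene's own by the accession or name given for it in the files. Timp2, which also takes part in the activation of pro-Mmp2 by Mmp14, read 3.01, 3.40, 3.50 and 3.35 on uninjured arrays and 3.36, 3.03, 2.77, 3.23 and 3.55 on injured arrays (A_52_P540219, NM_011594; mm7 chr11:118410877-118410936). Its log2 fold change was -0.13, with a 95% interval of -0.46 to 0.21 and an adjusted p of 0.604 in limma, and ran from -0.23 to -0.02 when 1 array was left out. The groups overlapped, and the sign turned to 0.06 in the authors' processed values and to 0.31 with slide as a fixed block. Its DRG-channel brightness was high, at 138000 to 222000 over the 9 arrays, and no array was saturated.

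Timp3, the TIMP that binds to the matrix, read 0.05 to 0.24 on uninjured and 0.04 to 0.33 on injured arrays (A_51_P463765, NM_011595; mm7 chr10:85907162-85907221). Its log2 fold change of 0.09 (interval -0.07 to 0.24, adjusted p = 0.407 in limma) was the smallest of the 4 inhibitors in size, and read -0.02 with median centring in place of loess. Timp4 (A_51_P355427, NM_080639; mm7 chr6:115271716-115271775) read -0.67, -0.51, -0.60 and -0.46 on uninjured arrays and -0.62, -0.42, -0.40, 0.50 and -0.31 on injured arrays. Injured 4 stood apart from the other 8 arrays. That array also had the highest means of the skeletal muscle markers (3.50 above the uninjured mean, log2) and the myelinating Schwann cell markers (0.59). Skeletal muscle markers were raised on injured 2 as well (2.01), where Timp4 read -0.42. The part of these markers in the Timp4 value was not tested. The log2 fold change was 0.31 (interval -0.10 to 0.72, adjusted p = 0.273 in limma), and 0.12 without injured 4.

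Set side by side, the change at Timp1 probe A_52_P87713 exceeded that of Timp2 by 2.50, of Timp3 by 2.29 and of Timp4 by 2.07 on the log2 scale. These differences are a description, since the probe was chosen after its values had been seen.

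Mmp16, a membrane-type metalloprotease (MT3-MMP) known from the nervous system, had 1 probe with a change about as large as that of Timp1 and 1 faint probe. Probe A_52_P975, designed on the cDNA AK048543 (mm7 chr4:18044344-18044403, plus strand), read 0.84, 0.81, 0.71 and 0.95 on uninjured arrays. On injured arrays it read 3.23, 3.61, 3.32, 3.21 and 3.05, so that the lowest injured array lay more than 2 above the highest uninjured one. Means were 0.83 ± 0.0983 for uninjured (SD, n = 4) and 3.28 ± 0.208 for injured arrays (SD, n = 5), which gave a log2 fold change of 2.46 (SE 0.104, adjusted p = 1.40e-07 in limma; exact permutation p = 0.00794). It ranked 30 by p among the 31186 probes. DRG-channel brightness was 385 to 430 on uninjured and 1270 to 3190 on injured arrays.

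The other Mmp16 probe, A_51_P195775 (NM_019724), was close to background. Its place on mm7, chr4:18020571-18037589, covers 17019 bases, so that the probe joins separate parts of the transcript, and it ends 6754 bases before A_52_P975 begins. It read -0.03, 0.08, 0.13 and 0.06 on uninjured arrays and 0.39, 0.40, 0.34, 0.23 and 0.23 on injured arrays. The log2 fold change was 0.26 (SE 0.0639, adjusted p = 0.0149 in limma). This value rests on faint spots: the DRG channel was well above background on 0 of 4 uninjured and 4 of 5 injured arrays, and the reference channel on 0 of 9. Its size depended on the treatment of background, from 0.20 with normexp fitted on all spots to 0.83 with an offset of 0 and 1.22 with Agilent's own ratio, so the difference in size between the 2 Mmp16 probes is not well measured.

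The call of A_51_P195775 was lost without uninjured 1 (log2 fold change 0.22, adjusted p = 0.0538 in limma). Whether A_52_P975 lies in an exon of the protein-coding Mmp16 transcript on mm7 was not examined, since no annotation of that build was used here.

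**Figure D2:**
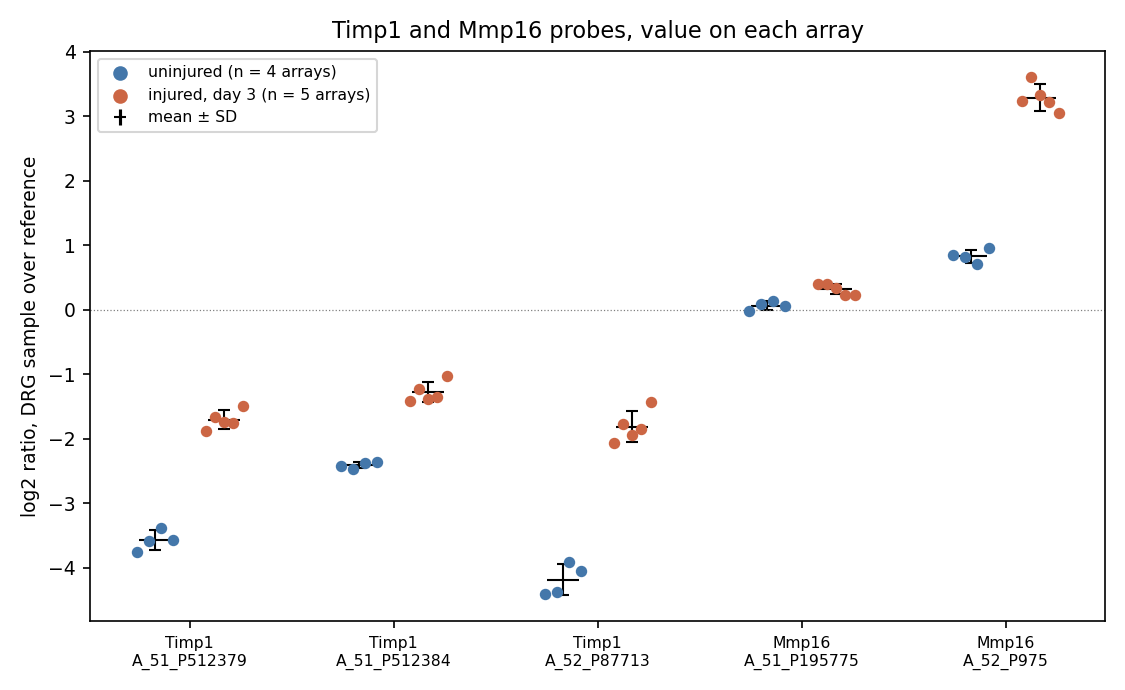
Log2 ratio of DRG sample over reference (vertical axis) of the 3 Timp1 and 2 Mmp16 probes is plotted on each of 4 uninjured (blue) and 5 injured (orange) arrays, with black marks for the mean ± SD. The colours are fully separated at all 5 probes, by a wide gap at A_52_P87713 and A_52_P975 and by a narrow one at A_51_P195775.

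Mmp14 (MT1-MMP), the main cell-surface activator of pro-Mmp2, gave similar values at both probes, neither of which passed the test. Probe A_52_P304128 (NM_008608; mm7 chr14:49307013-49307072) read -2.10, -1.68, -1.61 and -1.73 on uninjured arrays and -1.45, -1.36, -1.65, -1.38 and -0.77 on injured arrays. The groups overlapped, through injured 3, and injured 5 was the highest. Its log2 fold change was 0.46 (interval 0.10 to 0.82, adjusted p = 0.0680 in limma), and it was called without injured 3, at 0.54 with an adjusted p of 0.0387. Probe A_51_P216303 (mm7 chr14:49308207-49308266) read -2.05, -2.05, -1.52 and -1.76 against -1.62, -1.35, -1.70, -1.56 and -0.88, a log2 fold change of 0.42 (interval 0.05 to 0.80, adjusted p = 0.101 in limma). The array with the highest Mmp14, injured 5, also had the highest marker means of fibroblasts (0.70 above the uninjured mean, log2), endothelium (0.65) and pericytes and smooth muscle (1.27). The uninjured arrays spanned -0.50 to 0.54, -0.30 to 0.16 and -0.54 to 0.46 in these lists, and the injured arrays 0.00 to 0.70, -0.04 to 0.65 and -0.07 to 1.27. None of the 7, 6 and 6 genes of these lists was called. Injured 5 also had the highest means of the sensory neuron (0.22) and satellite glia (0.31) markers, against -0.12 to 0.11 on uninjured arrays in both lists. Its median Cy5 signal, 156, was the lowest of the 9 arrays. The part of any of these lists in the Mmp14 values was not tested. In whole ganglia a change in the number of cells of a type and a change of RNA per cell cannot be told apart.

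Mmp24 (MT5-MMP), a membrane-type protease found mainly in neurons, was the member with a value nearest to a fall. Probe A_51_P450376 (AJ010262; mm7 chr2:155557123-155557186) read 0.28, 0.38, 0.29 and 0.32 on uninjured arrays and 0.23, 0.07, 0.19, 0.20 and 0.15 on injured arrays. All injured arrays lay below all uninjured ones, and the exact permutation p was 0.00794. The log2 fold change of -0.15 (interval -0.28 to -0.03, adjusted p = 0.0809 in limma) did not pass across all probes. Probe A_52_P605500 (NM_010808; mm7 chr2:155558643-155558702) read 1.43 to 2.10 on uninjured and 1.57 to 1.91 on injured arrays, a log2 fold change of 0.03 (interval -0.25 to 0.30, adjusted p = 0.908 in limma) whose sign turned under several alternatives. Set beside these, the change of Mmp16 at A_52_P975 exceeded that of Mmp14 at A_52_P304128 by 2.0 and that of Mmp24 at A_51_P450376 by 2.61 on the log2 scale, given as a description.

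Among the secreted proteases, Mmp3 (stromelysin-1), which cleaves many matrix proteins and activates other MMPs, was the only one called. Probe A_51_P255699 (NM_010809; mm7 chr9:7453874-7453933) read -5.24, -5.11, -5.32 and -5.13 on uninjured arrays and -5.10, -4.84, -4.74, -4.69 and -4.71 on injured arrays. The groups were separated by a narrow margin, since injured 1 lay just above uninjured 2. The log2 fold change was 0.38 (SE 0.0919, adjusted p = 0.0119 in limma; exact permutation p = 0.0159). DRG spots were dim, with a brightness of 92.4 to 164 over all arrays, and the ranges of uninjured and injured arrays overlapped. With the DRG channel alone the log2 fold change was 0.22 (adjusted p = 0.0755 in limma), and with slide as a fixed block 0.36 (adjusted p = 0.259), so the call depended on the processing. With normexp fitted on all spots the value was larger and more variable, at 0.63 (SE 0.242, adjusted p = 0.0964), and with Agilent's own ratio it was 0.71 and called.

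Mmp2 (gelatinase A) did not pass. Its probe A_51_P341736 (NM_008610; mm7 chr8:91446191-91446250) read -2.02, -2.39, -2.02 and -1.86 on uninjured arrays and -2.10, -2.04, -2.20, -1.60 and -1.36 on injured arrays. Injured 4 and 5 lay above all uninjured arrays and the other 3 within their range. The log2 fold change was 0.21, with an interval of -0.18 to 0.60 and an adjusted p of 0.430 in limma. It was 0.09 without injured 5 and 0.11 without uninjured 2. Injured 4 and 5 also had the highest means of the pericyte and smooth muscle markers, 0.85 and 1.27 above the uninjured mean, whose part in the Mmp2 values was not tested.

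Mmp9 (gelatinase B), a protease that neutrophils store in granules, was highest on injured 2. Injured 4 and 5 also lay above all uninjured arrays at both probes, by less. Probe A_51_P401797 (NM_013599; mm7 chr2:164695457-164695516) read -2.75, -2.74, -2.71 and -2.63 on uninjured arrays and -2.63, -1.22, -2.53, -2.23 and -2.07 on injured arrays. Injured 2 stood above all others. Injured 1 lay above the highest uninjured array by less than the printed digits show, both at -2.63. Probe A_52_P507214 (mm7 chr2:164695774-164695833), printed as 10 spots on each array, read -2.88, -2.89, -2.87 and -2.72 against -2.65, -1.02, -2.82, -2.27 and -2.24. The SD of its 10 spots within an array was 0.0718 to 0.133. Log2 fold changes were 0.57 (interval 0.05 to 1.09, adjusted p = 0.107 in limma) and 0.64 (interval -0.01 to 1.29, adjusted p = 0.151). Without injured 2 both were 0.34, with adjusted p of 0.0675 and 0.0942.

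Immune cell markers were also highest on injured 2. The mean of the neutrophil markers was 2.92 above the uninjured mean there (log2), with 0.45 to 2.92 over the injured and -0.41 to 0.50 over the uninjured arrays. Of 10 neutrophil genes listed, 8 were tested and 1, Mpo, was called higher; Elane was too dim to test and Ly6g was not found on the array. Macrophage markers spanned 0.04 to 1.09 on injured and -0.44 to 0.33 on uninjured arrays, again highest on injured 2, and 3 of 12 were called higher. Red blood cell markers were 1.57 above the uninjured mean on this array. The part of these cells in the Mmp9 values was not tested.

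**Figure D3:**
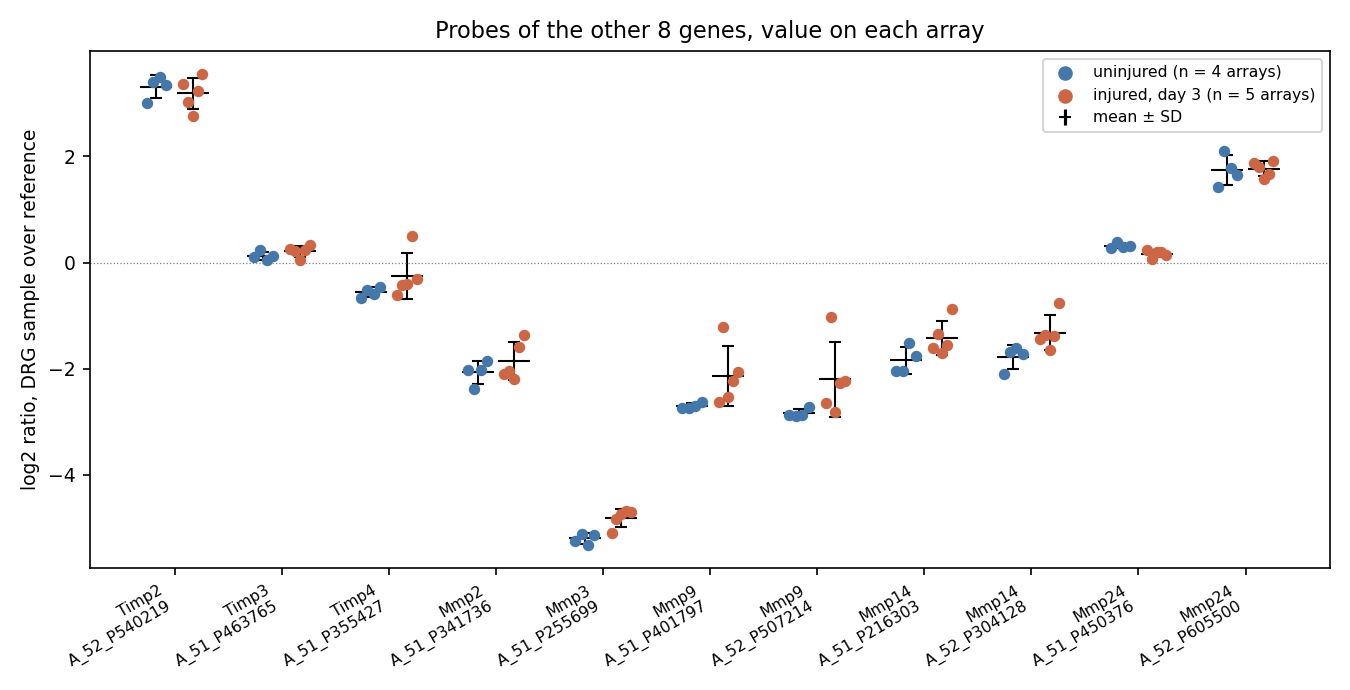
Log2 ratio of DRG sample over reference (vertical axis) of the 11 probes of the other 8 genes is plotted on 4 uninjured (blue) and 5 injured (orange) arrays, with black marks for the mean ± SD. Most groups overlap, and single injured arrays stand out at Timp4 (0.50) and at the Mmp9 probes (-1.22 and -1.02).

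**Figure D4:**
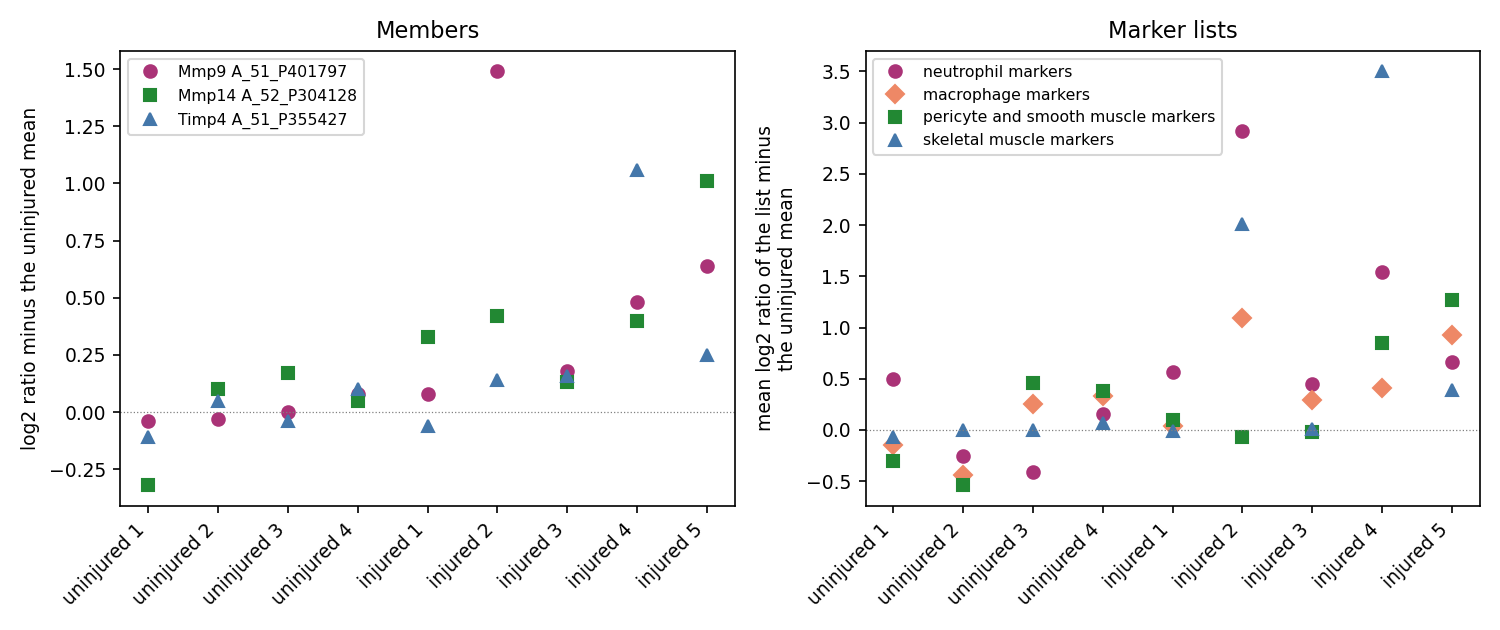
The left panel shows Mmp9, Mmp14 and Timp4 on each array, and the right panel the mean of 4 marker lists, both as log2 ratio minus the uninjured mean (vertical axes, of different range). Mmp9 and the neutrophil list peak on injured 2, Timp4 and the skeletal muscle list on injured 4, and Mmp14 and the pericyte and smooth muscle list on injured 5. The skeletal muscle list is also raised on injured 2 (2.01).

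The other MMPs of the mouse gave no call. Of 17 further genes, 15 had a probe, and 13 of their 18 probes could be tested. None was called by limma, and none had an unadjusted p under 0.05. Their log2 fold changes ran from -0.10 to 0.78 with a median of 0.02. Mmp8, the neutrophil collagenase, had the 0.78: it read 0.13 to 0.65 on uninjured and 0.40 to 3.11 on injured arrays (SE 0.472, adjusted p = 0.269 in limma). The 3.11 was on injured 2, and the other injured arrays read 0.40 to 1.12. The membrane-type Mmp15 (-0.04), the secreted Mmp13 (0.07) and the membrane-anchored Mmp25 (0.19) were among the others that did not pass. Probes of Mmp1a, Mmp12, Mmp20 and Mmp21 were too dim to test.

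Among genes that regulate or bind MMPs and TIMPs, 26 of 32 probes were tested, and 3 were called higher and 3 lower, which is 11.5% each and near the 10.5% and 13.0% of all probes tested. Their median log2 fold change was 0.00. Cd63, a tetraspanin and cell-surface binding partner of Timp1, also rose: it read -1.69 to -1.39 on uninjured and -0.91 to -0.22 on injured arrays, a log2 fold change of 0.94 (SE 0.124, adjusted p = 3.75e-04 in limma). Cd44, the hyaluronan receptor that docks Mmp9 and Mmp14 at the cell surface, rose at 2 probes, by 1.01 (A_52_P229536, adjusted p = 3.15e-04 in limma) and 1.06 (A_52_P523459, adjusted p = 5.25e-05). A further probe, A_51_P407053, had a log2 fold change of 0.00. It was close to background, well above it on 2 of 4 uninjured and 2 of 5 injured arrays. Lcn2, a secreted partner of Mmp9, read -2.02 to -1.59 on uninjured and -1.48 to 0.44 on injured arrays, and its log2 fold change of 0.92 did not pass (SE 0.331, adjusted p = 0.0689 in limma). The 0.44 was on injured 2, and the other injured arrays read -1.48 to -0.63.

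The calls in the lower direction were in the testicans, matrix proteoglycans of which some bear on membrane-type MMPs. Spock3 fell by 0.72 on the log2 scale (SE 0.133, adjusted p = 0.00285 in limma), with 5.01 to 5.43 on uninjured and 4.07 to 4.69 on injured arrays. At this probe the reference channel was well above background on 0 arrays, and the DRG channel on all 4 uninjured and all 5 injured arrays. Spock1 fell by 0.34 (adjusted p = 0.0386 in limma) with overlapping groups. Spock2 fell at 1 of its 3 probes (A_52_P393181, by 0.30, adjusted p = 0.0406), while the others had log2 fold changes of 0.09 and -0.07. Reck, a membrane-anchored MMP inhibitor (0.01), Furin, which activates membrane-type MMPs (0.02), Bsg, an inducer of MMPs (0.00), and the scavenger receptor Lrp1 (0.24 and -0.09) did not pass.

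Pde7a, Lgals3, Gadd45a, Emp3 and Tnfrsf12a had the patterns most like that of Mmp16 probe A_52_P975. Their Pearson r with it over the 9 arrays was 0.997, 0.997, 0.997, 0.996 and 0.996, the highest among 16493 genes compared. All 5 rose, with log2 fold changes of 1.41, 1.66, 3.50, 1.21 and 2.23. With 2 groups of arrays, such values of r mainly describe the step between uninjured and injured.

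The reference channel served as a check, since the same RNA was hybridised on all arrays. No member probe was called there (lowest adjusted p = 0.554 in limma, 30 of 31186 probes called). The arrays lay on 3 slides, and only the second held both groups, with uninjured 1 and injured 1, 2 and 5. Within that slide the log2 difference was 2.65, 2.08 and 1.19 for the Timp1 probes A_52_P87713, A_51_P512379 and A_51_P512384, and 2.46 and 0.37 for the Mmp16 probes A_52_P975 and A_51_P195775. It was 0.36 for Mmp3, 0.78 and 0.91 for Mmp9 and 0.77 and 0.91 for Mmp14. These rest on 1 uninjured array. A fit with slide as a fixed block gives the same differences, and its p-values take the spread from all slides and assume that the lone uninjured array varies like the others. Under that assumption the 3 Timp1 probes (adjusted p = 0.000492 to 0.00384 in limma) and A_52_P975 (0.000606) passed, and A_51_P195775 (0.112) and Mmp3 (0.259) did not.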

How the data were processed

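Total RNA of L3/L4 DRG (4 uninjured and 5 injured arrays, grouped by the labels) was hybridised against universal mouse reference on 2-colour Agilent arrays. Of the deposited intensity values, the mean signal of each spot and the median of its local background in both channels were used, not yet normalized by Feature Extraction 10.5.1.1 per the file headers. The deposited log10 ratios in the same files are Agilent's own, after its background model and dye normalization. The authors' processed log2 ratios were made with limma (version not given in the sources used here), and comparison with the scanner values showed sample over reference, a slope of 1.00 to 1.01 and centring near 0.

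In R 4.3.3 with limma 3.58.1, background was corrected by normexp (offset 50) without spots marked for uneven background, ratios were normalized by loess within arrays, and repeated spots were averaged. The 41174 probes (43379 spots) were filtered to 31186 with Cy5 well above background on at least 4 arrays. Every probe was kept separate. Groups were compared with lmFit and eBayes with Benjamini-Hochberg adjustment, and single values by two-sided exact permutation over all splits of the arrays. The fit was tested on simulated data. Probes were named through RefSeq by accession (22951 probes), symbol (6659) or older name (3109), and 8455 kept the file's name. Probe coordinates are those of the files (mm7). Plots came from matplotlib 3.10.9 under Python 3.11.15. All probes of the members were named, and from the lists of other MMPs and regulators all called ones and some others. Members and lists were chosen with earlier results of these data known. Alternatives were other background, normalization, filter, slide, probe and threshold settings, array weights, and leaving out each array.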

Additional observations from a re-analysis of the deposited data

Results flagged for a closer look

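Each group of arrays at each member probe was searched for a highest or lowest array set apart from the rest by more than Dixon's 95% limit; 2 of 32 groups had one, and chance alone gives about 1 in 20. Timp4 on injured 4 was at 0.50, with the nearest injured array at -0.31. Mmp9 probe A_52_P507214 on uninjured 4 was at -2.72, with the nearest uninjured array at -2.87, a small gap within a tight group.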

How the results depend on the processing

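Up to 25 alternatives were run for each probe. The 3 Timp1 probes and Mmp16 A_52_P975 stayed called in all that gave a test. Their own log2 fold changes were 2.28 to 2.65 (A_52_P87713), 1.77 to 2.49 (A_51_P512379), 1.07 to 1.26 (A_51_P512384) and 2.34 to 2.75 (A_52_P975). The mean of a gene's probes gave 1.79 for Timp1 and 1.36 for Mmp16, the latter with the faint probe included. The count of member probes called was 4 to 9. Leaving out 1 array gave 5 to 7, and 5358 to 7487 called among all probes. The 7338 probes called became 3521 with median centring, 1507 with slide as a fixed block, 1626 above 1.5-fold as well, and 4038 without injured 2 and 4, an alternative chosen after seeing the data. The share of calls that were higher was 44.6%, and 37.3%, 55.5%, 57.1% and 45.3% in these. Mmp3 (0.22 to 0.71 over all alternatives) lost its call under all spots, where its value rose to 0.63, median centring, Cy5 alone, the slide block and without injured 2 and 4 (0.35, adjusted p = 0.0753 in limma). Mmp16 A_51_P195775 (0.20 to 1.22) lost it under all spots, no background correction, the slide block, without uninjured 1 and without injured 2 and 4. With slide as a random block (correlation -0.20), Mmp9 A_51_P401797 (0.0391), Mmp14 A_52_P304128 (0.0446) and Mmp24 A_51_P450376 (0.0225) passed. The sign turned for Timp2 with the authors' values (0.06) and the slide block (0.31), and for Timp3 with median centring (-0.02). For Mmp24 A_52_P605500 it turned with all spots (-0.12), median centring (-0.01), Agilent's ratio (-0.03), the random block (-0.04), the mean of the gene's probes (-0.06) and without uninjured 1, uninjured 4 or injured 5, with -0.08 to 0.15 when 1 array was left out. The causes were not tested. No paired analysis was possible because replicate numbers are absent from the sample labels. The number of arrays and dim spots limit the precision.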
